A study of Mus musculus with 7 samples.

Results

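The genes described here encode mitochondrial ribosomal proteins, and were taken from the platform annotation as every symbol that starts with Mrpl or Mrps followed by a digit. Of 22180 genes with a probe set of their own, 71 met this rule, and each is represented by its brightest probe set. Another 7 genes of that name pattern (Mrpl30, Mrpl33, Mrpl41, Mrpl43, Mrpl44, Mrpl53 and Mrps6) had only probe sets shared with other genes and were not analysed here. RNA came from vascular fragments of the brain of female C57BL/6N mice aged 12 weeks, as the series' design text gives strain and age (the sample labels say C57BL/6 and adult). The 4 PDGF-CC arrays come from mice that received this platelet-derived growth factor, a ligand of PDGFR-alpha, in the cerebral ventricles, and the 3 PBS arrays from mice that received phosphate-buffered saline by the same route, with tissue taken 4 hours later in both groups. No genetic change is named in the labels. They do not say whether animals were pooled or whether each array is a separate mouse, so the spread between arrays may be partly technical.

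Mitochondria translate a small set of respiratory chain subunits from their own DNA on a ribosome of their own. Its RNAs are made inside the organelle, while all of its proteins are encoded in the nucleus, made in the cytosol and imported. The large subunit forms peptide bonds and holds the exit tunnel, the small subunit decodes the messenger RNA. Many of the proteins descend from the bacterial ancestor, and others were added in the mitochondrial lineage. Brain capillary endothelium and pericytes are known for a high content of mitochondria.

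The arrays correlated at 0.987 to 0.994 over all probe sets, and the 8 markers of brain endothelium had a mean log2 signal between 10.95 and 11.16 on each. The 5 neuronal markers had a mean between 4.66 and 4.89, close to the filter of 4.14. Markers of pericytes (9.44 to 9.91), smooth muscle (9.52 to 9.96), microglia (9.33 to 9.81) and choroid plexus (6.71 to 8.06) lay further above it. All 71 mitochondrial ribosomal protein genes had a mean over the 7 arrays above that filter, which did not use the groups. Signals are log2 values from probe sets that differ in brightness, so they are compared between arrays for the same gene, not between genes. In bulk RNA, fewer cells of a type and less RNA per cell cannot be told apart.

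After PDGF-CC, most mitochondrial ribosomal protein genes had slightly lower signal than after PBS, and no single gene passed the test. The difference was below 0 for 52 of 71 genes (73.2%), against 51.3% of all 15582 genes tested. Their median difference was -0.059 on the log2 scale, against -0.0029 for all genes, and the middle range ran from a lower quartile of -0.12 to an upper quartile of 0.0080. The limma fit over all probe sets called 0 of 71 genes at an adjusted p under 0.05, and called 0% of 17734 probe sets in all. The smallest adjusted p among these genes was 0.769. At an unadjusted p under 0.05 there were 4 genes, all lower, which is 5.63% of them against 3.30% of all genes for that direction, and 0 higher against 2.58% (5.88% of all genes in either direction). Every PDGF-CC array was below every PBS array for 3 genes, or 4.23%, against 2.37% of all genes. A single gene was above in every array, or 1.41%, against 1.81% (4.18% of all genes in either direction).

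The size of these differences was bounded. The 95% interval of the difference lay inside a 1.5-fold change in either direction (0.585 on the log2 scale) for 67 of 71 genes, against 88.7% of all genes. The 4 genes with wider intervals were Mrpl47, Mrps16, Mrps18b and Mrps14, and no estimate reached that size. The median residual SD of a mitochondrial ribosomal protein gene was 0.121, against 0.127 for all genes.

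**Figure D1:**
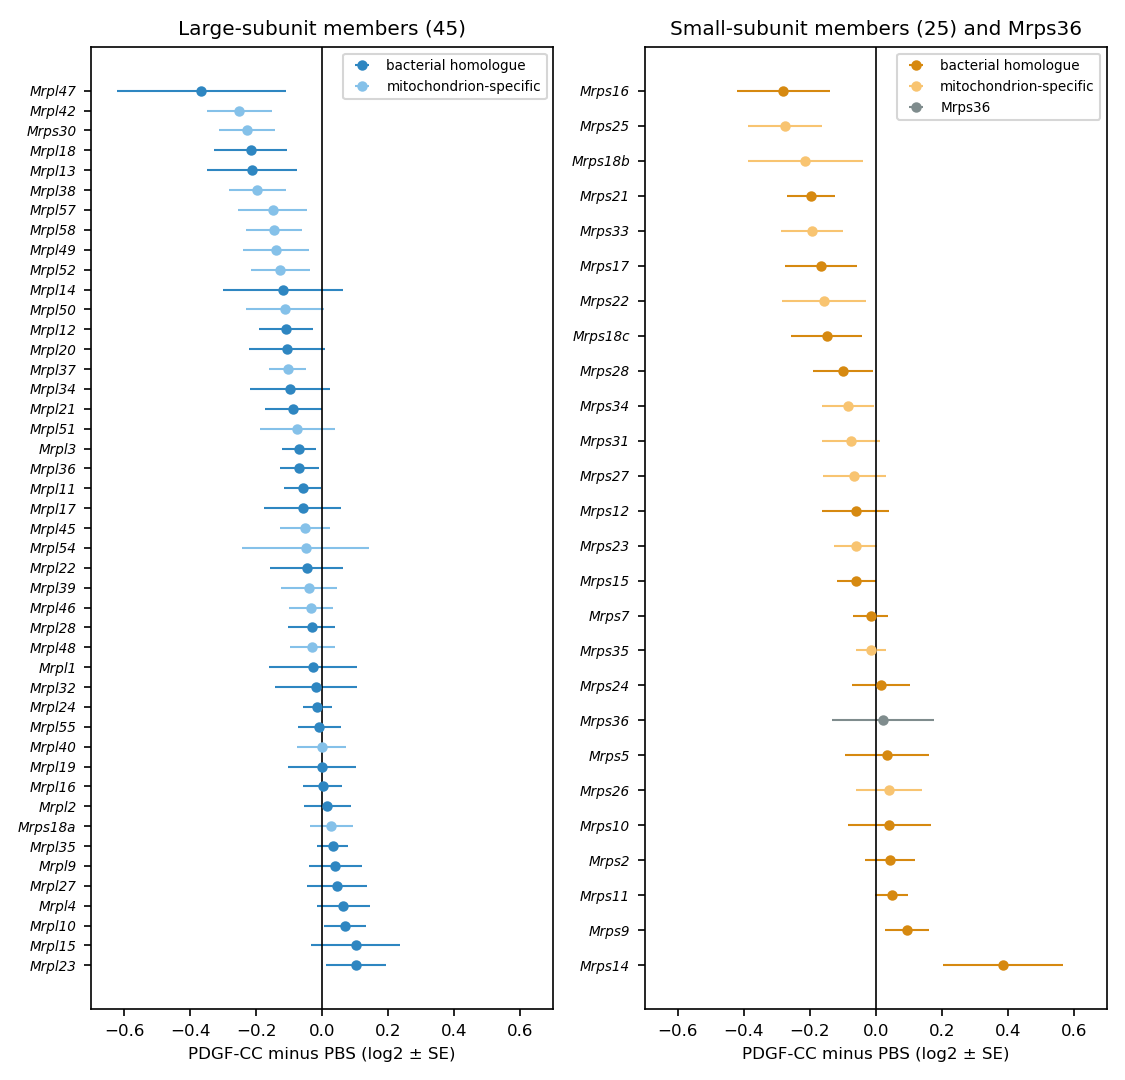
Difference of each of the 71 genes between PDGF-CC (4 arrays) and PBS (3 arrays), on the log2 scale, with standard errors from limma as bars. Colours separate proteins with a bacterial homologue from mitochondrion-specific ones, and most points lie left of 0 (52 of 71).

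The groups overlapped when the genes were summarised by array. Each gene was set against its own mean over the 7 arrays, and the median of these deviations was taken on each array. It was -0.023, -0.029, -0.012 and -0.0027 on PDGF-CC arrays 1 to 4, and -0.0081, 0.036 and 0.064 on PBS arrays 1 to 3. PBS array 1 thus lay among the PDGF-CC arrays, and PBS arrays 2 and 3 stood above all others. The group means were -0.016 ± 0.012 (SD, n = 4) for PDGF-CC and 0.030 ± 0.036 (SD, n = 3) for PBS. For 41 of 71 genes the highest value of all was on PBS array 2 or 3 (57.7%, against 33% of all genes). The lowest value was on PDGF-CC array 1 or 2 for 32 genes (45.1%, against 35.6%).

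The counts moved with single arrays. Without PBS array 1 the median difference was -0.091, 9 genes had an unadjusted p under 0.05 (background 5.71% of all genes) and 15 did not overlap between groups (background 12.2%). Without PBS array 2 the median was -0.043 and 0 genes had an unadjusted p under 0.05, against 4.90% of all genes. Without PBS array 3 the median was -0.035 and 9 genes did not overlap, where 11.9% of all genes did not. Leaving out PDGF-CC array 1 left 1 gene at an unadjusted p under 0.05 (background 4.42%) and 6 without overlap (background 6.24%). Without PDGF-CC array 2 these were 1 gene (background 4.00%) and 5 genes (background 6.09%). Without PDGF-CC array 3 they were 4 (background 5.71%) and 8 (background 7.93%), and without PDGF-CC array 4 they were 5 (background 5.88%) and 8 (background 7.79%). The number without overlap was 6 when PBS array 2 was left out (background 12.1%), and 3 genes had an unadjusted p under 0.05 when PBS array 3 was (background 5.71%).

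The numbers in the sample descriptions run from 1 to 7 over both groups, and the arrays followed that order. The score on the first principal component of all tested probe sets (28.5% of the variance) increased with each number, from -24.38 and -10.66 on PDGF-CC arrays 1 and 2 through 0.52, 3.80, 5.78 and 10.08 to 14.88 on PBS array 3. The arrays at the low end were also those on which these genes were most often lowest. The part of this order in the differences was not tested beyond the values that follow. The median difference was -0.054 among numbers 1 to 4 (2 arrays a group) and -0.061 among numbers 5 to 7 (2 PDGF-CC arrays and 1 PBS array). With the number as a covariate it was -0.040. Within each of these parts the PDGF-CC numbers come before the PBS numbers, so treatment and order within a part cannot be told apart.

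**Figure D2:**
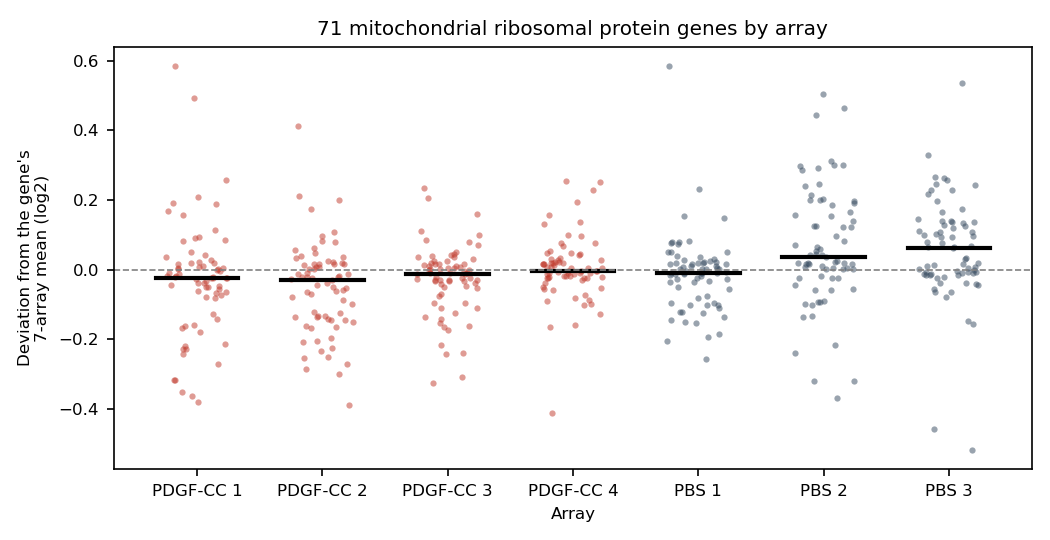
Deviation of each of the 71 genes from its own mean over the 7 arrays, on the log2 scale, by array (points), with the median of each array as a black line. The medians of PBS arrays 2 and 3 (0.036 and 0.064) are above those of the other arrays, and PBS array 1 (-0.0081) is among the PDGF-CC arrays.

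The lowest p of the family belonged to Mrps21, which encodes a small-subunit protein with a bacterial homologue. Its log2 signal was 8.03, 7.82, 7.94 and 8.07 on the PDGF-CC arrays and 8.10, 8.21 and 8.17 on the PBS arrays. All 4 PDGF-CC arrays were below all 3 PBS arrays, although PDGF-CC array 4 and PBS array 1 nearly met. The difference was -0.20 ± 0.072 (log2, SE, n = 4 and 3; limma adjusted p = 0.769), or 1.15-fold higher in PBS.

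The other genes with complete separation were 2 large-subunit genes that were lower and 1 small-subunit gene that was higher. Mrpl18 encodes the mitochondrial relative of the protein that binds 5S ribosomal RNA in bacteria and sits in the central protuberance. It read 7.18, 7.56, 7.54 and 7.51 after PDGF-CC and 7.56, 7.62 and 7.80 after PBS. PDGF-CC array 2 and PBS array 1 differed only in the third decimal, and the difference of -0.22 ± 0.11 was set in part by PDGF-CC array 1. Without that array it was -0.13. Mrpl38, a mitochondrion-specific protein of the same protuberance, read 6.03 and then 6.16 on each of PDGF-CC arrays 2, 3 and 4, against 6.26, 6.51 and 6.19 after PBS. Its difference was -0.20 ± 0.086, and -0.10 without PBS array 2. Both had a limma adjusted p of 0.769.

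Mrps14, a protein of the small subunit's head with a bacterial homologue, had the largest positive difference. It read 5.92, 5.43, 5.33 and 5.33 after PDGF-CC and 5.29, 5.25 and 4.82 after PBS. PDGF-CC array 1 was the highest, PBS array 3 the lowest, and the remaining 5 arrays lay between 5.25 and 5.43. The difference was 0.38 ± 0.18 (1.31-fold; limma adjusted p = 0.769). It was 0.24 without PBS array 3 and 0.25 without PDGF-CC array 1. This gene also had one of the widest intervals, from -0.042 to 0.81.

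The other 3 genes at an unadjusted p under 0.05 were mitochondrion-specific, and their groups overlapped. Mrps30, despite its name a protein of the large subunit, read 6.23, 6.37, 6.41 and 6.39 after PDGF-CC and 6.41, 6.60 and 6.71 after PBS. PDGF-CC array 3 and PBS array 1 had the same value, and the difference was -0.23 ± 0.085 (limma adjusted p = 0.769). Mrpl42 read 8.90, 8.87, 9.02 and 9.25 after PDGF-CC against 9.27, 9.32 and 9.20 after PBS. PDGF-CC array 4 lay among the PBS arrays, and the difference was -0.25 ± 0.098 (limma adjusted p = 0.769). Mrps25 of the small subunit read 7.62, 7.73, 7.94 and 7.98 after PDGF-CC and 7.95, 8.25 and 8.07 after PBS. Its PDGF-CC arrays 1 and 2 were the lowest, and the difference was -0.28 ± 0.11 (limma adjusted p = 0.769).

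The lowest estimate of all came from a gene whose PBS arrays disagreed. Mrpl47, which encodes the uL29 protein at the rim of the exit tunnel, read 6.84, 6.99, 7.21 and 7.21 after PDGF-CC and 7.80, 7.72 and 6.76 after PBS. PBS array 3 was thus below every PDGF-CC array while the other PBS arrays were above them, and the difference of -0.37 ± 0.26 became -0.70 without PBS array 3 and -0.18 without PBS array 1. A second, dimmer probe set of Mrpl47 differed by -0.062 ± 0.098. Mrps16, a bacterial-type small-subunit protein, was lower by 0.28 ± 0.14 on the log2 scale and read highest on PBS array 2 (10.04, against 9.32 to 9.73 elsewhere). Its second probe set differed by -0.42 ± 0.18, so the lower value was read by both. Without PBS array 2 the difference of the brighter one was -0.14.

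**Figure D3:**
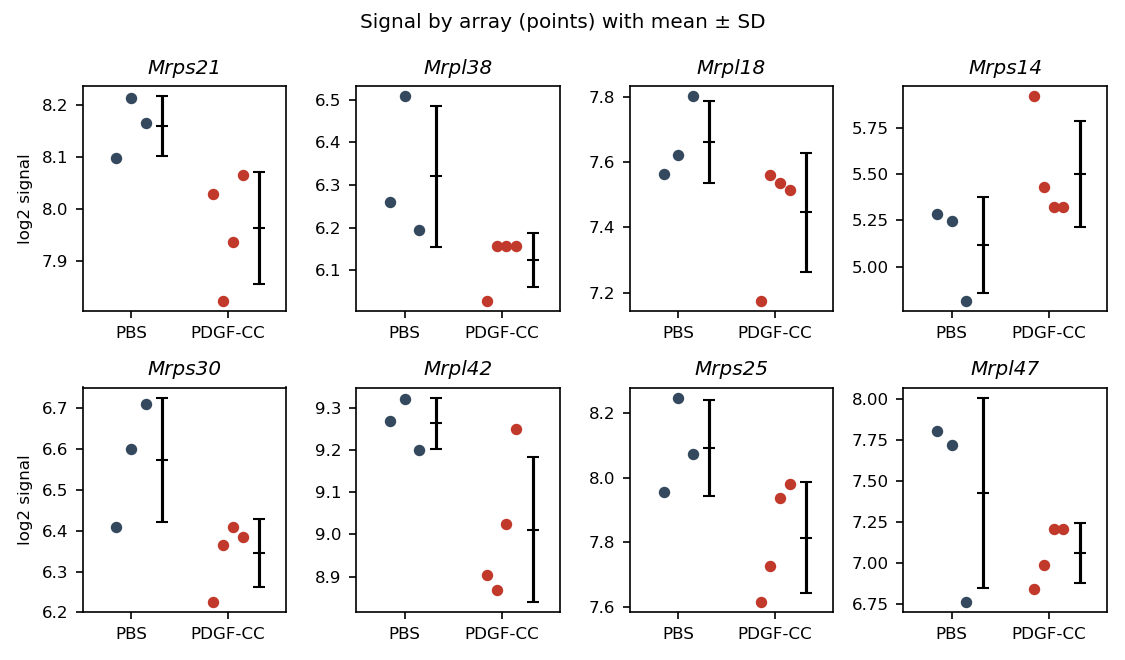
Log2 signal of 8 genes by array (points), with mean and SD of each group beside them; each panel has its own axis, which does not start at 0. Groups are apart for Mrps21, Mrpl38, Mrpl18 and Mrps14 and overlap for Mrps30, Mrpl42, Mrps25 and Mrpl47.

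The subunits had similar medians. Of 45 large-subunit genes (Mrps30 and Mrps18a included, since their proteins sit there) 35 were lower, with a median of -0.052. Of 25 small-subunit genes 17 were lower, with a median of -0.062. The large-subunit median was -0.092 without PBS array 1, and the small-subunit median was -0.027 when PDGF-CC array 2 was left out and -0.035 when PBS array 3 was. The large minus small difference of 0.0096 was smaller than its spread between arrays, an SD of 0.045, and turned to -0.0007 with the description number as a covariate and to -0.033 without PDGF-CC array 2. The remaining gene, Mrps36, keeps its ribosomal name but encodes a subunit of the 2-oxoglutarate dehydrogenase complex. It lay near the filter and differed by 0.023 ± 0.15, with its sign turned in several alternatives.

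The genes were also grouped by origin of the protein, as ribosome nomenclature classes it, which counts Mrps18a and Mrps18b as mitochondrion-specific although they are related to bacterial S18. Of 27 mitochondrion-specific genes 25 were lower (92.6%), with a median of -0.084. Of 43 genes with a bacterial homologue 27 were lower (62.8%), with a median of -0.029. With Mrps18a and Mrps18b counted as bacterial-type, a choice added after seeing the data, 24 of 25 and 28 of 45 were lower and both medians were the same. The mitochondrion-specific median was -0.046 without PBS array 2, and the bacterial-type median was -0.080 without PBS array 1 and -0.0086 without PBS array 3. By array, the median deviation of the mitochondrion-specific genes was -0.050, -0.058, -0.030 and 0.0039 after PDGF-CC and 0.010, 0.12 and 0.033 after PBS. That of the bacterial-type genes was -0.013, -0.022, -0.010 and -0.0027 against -0.011, 0.0063 and 0.064. The groups of arrays stood just apart for the first and overlapped for the second, and PBS array 2 was the highest for the first alone. The median of the first minus that of the second was -0.055, about the size of its SD between arrays (0.050), and -0.020 without PBS array 2 and -0.023 without PBS array 1. No test of this difference was made.

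Within the mitochondrion-specific genes of the large subunit 16 of 17 were lower, and the exception was Mrps18a at 0.028 ± 0.065. Mrpl57 was at -0.15 ± 0.10, Mrpl58, a peptidyl-tRNA hydrolase built into the central protuberance that frees stalled peptides, at -0.14 ± 0.085, and Mrpl37 at -0.11 ± 0.057. Among those of the small subunit 9 of 10 were lower, with Mrps33 at -0.19 ± 0.094 and Mrps26, the exception and named for that after its value was seen, at 0.040 ± 0.10. Of the bacterial-type genes Mrps17 was at -0.17 ± 0.11 and Mrpl13 at -0.21 ± 0.14. Mrps9 (0.095 ± 0.066), Mrpl15 (0.10 ± 0.13), Mrpl23 (0.10 ± 0.092) and Mrpl10 (0.069 ± 0.062) made up the positive end with Mrps14. Single arrays carried much of several of these values. Without PBS array 2, Mrpl15 was at -0.053, Mrps33 at -0.099, Mrps17 at -0.072 and Mrpl37 at -0.066. Without PBS array 3, Mrpl58 was at -0.071. Without PBS array 1, Mrps9 was at 0.055. Without 1 PDGF-CC array, Mrpl23 was at 0.032 (array 1), Mrpl13 at -0.12 (array 2), Mrpl57 at -0.069 (array 3) and Mrpl10 at 0.027 (array 4).

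By place in the particle, 7 of 8 central protuberance genes were lower (median -0.032), 6 of 7 at the exit tunnel rim (median -0.046) and 4 of 5 in the stalks (median -0.050). Mrpl12, the stalk protein that also binds the mitochondrial RNA polymerase, differed by -0.11 ± 0.081 on its brighter and by 0.013 ± 0.074 on its dimmer probe set. Without PBS array 2 the brighter one differed by -0.019. Mrpl10, which anchors it, had opposite signs too, with -0.12 ± 0.063 on the dimmer probe set. Mammals have 3 relatives of bacterial S18, which occupy different sites. Mrps18b and Mrps18c in the small subunit were at -0.21 ± 0.17 and -0.15 ± 0.11, and Mrps18a in the large subunit is given above. Without PBS array 2 they were at -0.043 and -0.099. The dimmer probe set of Mrps18b differed by -0.16 ± 0.073, and that of Mrps18c lay under the filter. None of these genes passed the limma test.

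In 23 of the 71 genes, 3 or more arrays held exactly the same value (32.4%, against 38.1% of all genes), as in Mrpl38. Mrpl10 and Mrps2 had the same value on 5 arrays. Where such values come from was not tested.

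The promoters of these genes share features that the choice by name did not use. RefSeq windows on GRCm38.p6, from 250 bases before to 50 after the annotated start, were found for 62 of the 71 genes. They were searched on both strands for CCGGAAG, the core bound by ETS factors such as GABPA, for GCGCA and GCGC with any base between them, a site of NRF1, and for AAGATGGC, a site of YY1. These 3 factors are known regulators of nuclear genes for mitochondrial proteins. The ETS core was found in 23 windows (37.1%), against 13.3% of 15379 protein-coding genes with a probe set of their own and 9.93% of all 27025 genes with a window. NRF1 letters were in 11 (17.7%, against 7.67% and 5.19%) and YY1 letters in 12 (19.4%, against 3.71% and 3.19%). The GC box GGGCGG was about as frequent as in other protein-coding genes (51.6% against 51.7%, and 38.2% of all). Of 58 cytosolic ribosomal protein genes, 43.1% held the ETS core, 8.62% the NRF1 and 8.62% the YY1 letters. Any of the 3 was in 61.3% of the mitochondrial and 58.6% of the cytosolic family. Matches of different motifs overlapped in the windows of Mrpl17 and Mrps16, each an ETS core with a GC box. Median GC content was 58%, against 57.1% in those protein-coding genes. The median number of CG pairs (C followed by G) in a window was 20.6, against 14.7 in those genes. It was 22.0 in the cytosolic family and 7.0 in all genes with a window. The ETS core and the NRF1 letters hold such pairs, and their part in the shares above was not tested. Every forward YY1 match lay 11 to 36 bases after the start, and the reversed ones 30 to 242 bases before it. The YY1 letters hold ATG, and the part of start codons in their share was not tested.

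The following 30-base stretches show such matches, to let the letters be read in genes described above, 5′ to 3′ on the gene's strand with the match in capitals. They are examples of each motif from genes with a named value, not all matches found.
Mrps21, NRF1 letters reversed, 91 bases before the start (chr3:95871586-95871615, minus strand): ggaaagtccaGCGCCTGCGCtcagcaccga
Mrps21, ETS core reversed, 18 bases after the start (chr3:95871478-95871507, minus strand): cgtagcttccgCTTCCGGtccgcagagacc
Mrpl42, YY1 letters 27 bases after the start (chr10:95501904-95501933, minus strand): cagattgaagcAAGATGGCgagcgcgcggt
Mrps33, ETS core reversed, 38 bases after the start (chr6:39810887-39810916, minus strand): aagtaaaggggggcgggcCTTCCGGggacg
Mrpl18, ETS core 240 bases before the start (chr17:12916312-12916341, minus strand): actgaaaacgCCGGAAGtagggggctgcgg
Mrps16, ETS core reversed, 74 bases before the start (chr14:20393546-20393575, minus strand): ttgggggcgctCTTCCGGgcttcaggctct
Mrpl37, YY1 letters 26 bases after the start (chr4:107066822-107066851, minus strand): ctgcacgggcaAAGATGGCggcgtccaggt
Mrpl57, NRF1 letters 57 bases before the start (chr14:57826172-57826201, plus strand): tttgaatcctGCGCAGGCGCagaaggcgtc
Mrpl12, NRF1 letters reversed, 81 bases before the start (chr11:120484546-120484575, plus strand): tattgtctccGCGCCTGCGCgtcgcaccgc

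The windows of Mrps14, Mrps25, Mrps30 and Mrpl47 held none of the ETS, NRF1 or YY1 letters, and Mrpl38 had no window. Of the 23 genes with the ETS core 20 were lower after PDGF-CC, with a median of -0.087, and of the 39 without it 25 were lower, with a median of -0.029. For NRF1 the medians were -0.052 with (11 genes) and -0.061 without the letters (51 genes), and for YY1 -0.040 (12 genes) and -0.059 (50 genes). These are descriptions of letters in a window, with no test.

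Some of these genes start close to a neighbour on the other strand, and the pairs named here were picked for the neighbour's role. The window overlapped that of an opposite-strand protein-coding gene for 20 of 62 genes (32.3%), against 7.90% of protein-coding genes with a probe set and 13.8% of cytosolic ribosomal protein genes. Starts were 32 to 332 bases apart. Mrpl46 and Mrps11 are each other's neighbours, 42 bases apart, and differed by -0.033 ± 0.067 and 0.048 ± 0.050. Mrps12 faces Sars2, the mitochondrial seryl-tRNA synthetase gene (-0.062 ± 0.10 and 0.097 ± 0.063). Mrpl47 faces Ndufb5 of complex I, which differed by -0.084 ± 0.083, and Mrpl18 faces the chaperonin gene Tcp1 (-0.053 ± 0.049). The starts of Mrpl18 and Tcp1 are 238 bases apart, so the ETS core printed for Mrpl18, 240 bases before its start, lies at the start of Tcp1. Of 18 neighbours tested 11 were lower, and genes with such a neighbour had a median of -0.064 against -0.059 without.

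The rest of the mitochondrial translation pathway was described with gene lists, in which limma called 0 genes in either direction. Mitoribosome proteins that go by other names (4 tested) had a median of -0.063, with Gadd45gip1 at 0.12 ± 0.056, Dap3, a GTP-binding protein of the small subunit's head, at -0.084 ± 0.071, and Ptcd3 at -0.070 ± 0.070. The list of translation factors, which also held the ATP synthase assembly gene Tmem70 (-0.11 ± 0.079), was lower for 11 of 15 genes (median -0.059), and for 10 of 14 (median -0.058) without Tmem70. The recycling factor gene Mrrf was at -0.14 ± 0.092 and the elongation factor gene Gfm1 at -0.093 ± 0.063. The tRNA synthetases were lower for 10 of 19 (median -0.042), with Iars2 at -0.14 ± 0.069, Fars2 at -0.22 ± 0.11 and Ears2 at 0.14 ± 0.077. Assembly factors, which modify ribosomal RNA and place proteins, were lower for 14 of 26 (median -0.012), with Mterf4 at 0.15 ± 0.075, Mrm3 at 0.25 ± 0.14 and Mpv17l2 at -0.13 ± 0.072.

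Genes upstream and downstream of the mitochondrial ribosome gave the following values. Mitochondrial transcription and DNA maintenance genes were lower for 8 of 11 (median -0.041), with Ssbp1 at -0.11 ± 0.070, Tefm at -0.25 ± 0.20 and Polg2 at -0.11 ± 0.092. Import genes were lower for 16 of 23 (median -0.050), with Timm44 at 0.19 ± 0.10, Timm17a at -0.15 ± 0.087 and Tomm22 at -0.18 ± 0.11. Of 9 regulators of mitochondrial biogenesis 5 were lower (median -0.020). The coactivator gene Ppargc1a differed by -0.18 ± 0.093, Nrf1 by -0.15 ± 0.079 and Gabpb1, which encodes a partner of GABPA, by 0.095 ± 0.055. Complex I subunits, several of whose partners are made on this ribosome, were lower for 27 of 32 (median -0.076), with Ndufb3 at -0.47 ± 0.16, Ndufv2 at -0.26 ± 0.10 and Ndufa7 at -0.16 ± 0.071. Cytosolic ribosomal proteins were lower for 41 of 58 (median -0.057), with Rps19 at -0.24 ± 0.080, Rpl7 at -0.31 ± 0.11 and Rps26 at -0.21 ± 0.088. The mitochondrial ribosomal proteins thus had a median close to that of their cytosolic counterparts.

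**Figure D4:**
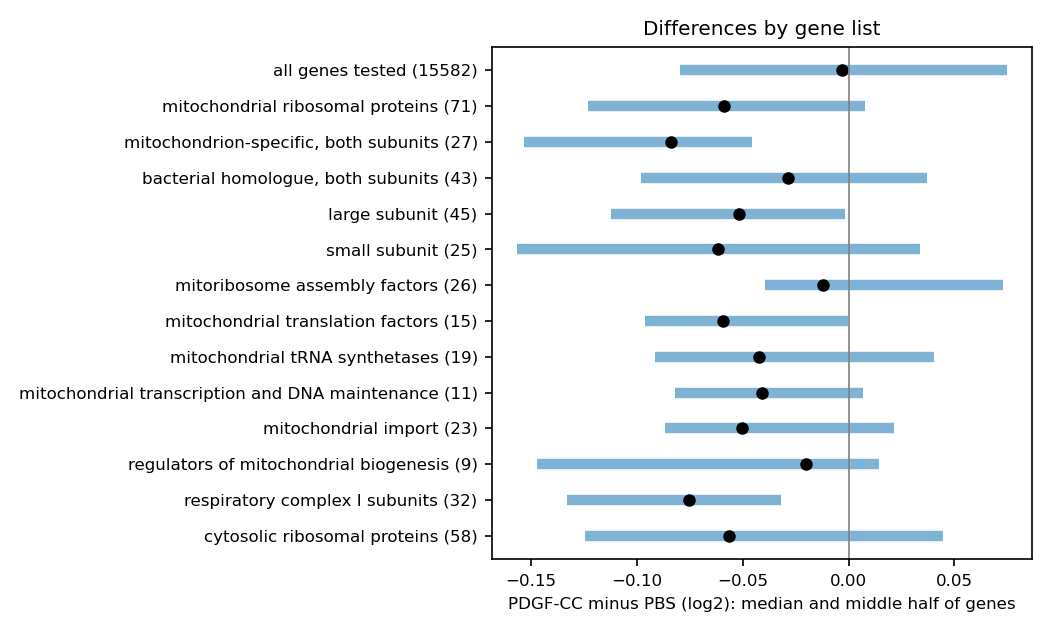
Median (black point) and range from the lower to the upper quartile (blue bar) of the log2 difference between PDGF-CC and PBS for all genes, this family, its classes and the lists of the mitochondrial pathway and cytosolic ribosome (cell markers are not drawn), with the number of genes tested in parentheses. The mitochondrion-specific proteins (median -0.084) and complex I subunits (median -0.076) have the lowest medians drawn, and the assembly factors (median -0.012) lie near all genes.

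Markers of other cells differed between the groups too, with 0 called by limma. For all 6 choroid plexus markers the PDGF-CC values lay below the lowest PBS value (2.37% of all genes did so), with a median difference of -0.71. These markers share a cell type and were all lowest on PDGF-CC array 3, so they are not separate observations. Their mean log2 level was 6.71 to 7.52 after PDGF-CC and 7.74 to 8.06 after PBS, highest on PBS array 2, and no marker was at 0. All 6 pericyte markers were lower (median -0.15), at 9.44 to 9.83 after PDGF-CC and 9.68 to 9.91 after PBS. Of 5 microglial markers 4 were higher (median 0.27), at 9.75 to 9.81 and 9.33 to 9.70, and lowest on PBS array 2. Endothelial markers were lower for 6 of 8 (median -0.036), at 10.95 to 11.10 and 11.01 to 11.16. All 4 smooth muscle markers were higher (median 0.21), at 9.83 to 9.96 after PDGF-CC and 9.52 to 9.89 after PBS. Of 3 neutrophil markers tested 2 were lower (median -0.64, that of S100a9 with an SE of 0.62), and of 4 astrocyte markers 2 (median 0.010). Of 5 neuronal markers 4 were higher (median 0.047), of 4 lymphocyte markers 3 (median 0.19) and of 3 oligodendrocyte markers 3 (median 0.21). The lymphocyte markers had a mean log2 level of 4.51 to 4.88, close to the filter of 4.14 like the neuronal ones. The oligodendrocyte markers had one of 4.75 to 5.34, and Mbp read 6.98 on PDGF-CC array 1 against 5.49 to 5.98 elsewhere. The part of these cells in the values of the mitochondrial ribosomal protein genes was not tested.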

How the data were processed

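The deposited series matrix holds 1 log2 value per probe set and array, as the range and near-equal distributions of the values show. The submitters' processing notes list RMA, limma and the Affymetrix Expression Console. Their settings and the annotation build were not given in the sources used here. RMA makes distributions equal between arrays, which removes any overall shift in RNA level. Per the labels' protocols, 10 ng of RNA per sample was amplified from whole transcripts. Arrays carry no read depth, and their number limits the precision.

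Of 33793 probe sets, 23521 had 1 symbol, 1814 several and 8458 none. Those with any symbol whose 7-array mean passed the 30th percentile (17734) entered a limma 3.58.1 fit (lmFit, eBayes; R 4.3.3), PDGF-CC minus PBS, without covariates, 2-sided, with Benjamini-Hochberg adjustment over all of them. Genes were named by rule: the 15 smallest p, the 5 most positive and 5 most negative differences, the S18 relatives, Mrpl12, Mrps30 and Mrps36, genes whose probe sets differed in sign, and the 3 smallest p of each other list. The members and lists were chosen with earlier results of these data known. The scripts were tested on simulated data of 17734 probe sets, 50 of them changed. At 1.5-fold, the smallest change tried, the counts were 39 called and 11 false calls, and at 8-fold 49 and 11. At each fold tried, the false calls were a larger share of the calls than the adjusted p threshold of 0.05. How the spread in the simulation compares with that of these arrays was not tested. In the arrays, 136 of 15582 genes had an estimate past 1.5-fold, and 0 of 17734 probe sets were called. Alternatives covered the filter, normalization, weights, covariates, blocks, probe set choice and each array left out. Figures were drawn with matplotlib 3.10.9.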

Additional observations from a re-analysis of the deposited data

Results flagged for a closer look

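Within the 4 PDGF-CC arrays, 1 array stood far from the others for 7 of 25 quantities checked (24 genes and the median over all genes of the family), by the share of the range that lies between it and its nearest neighbour, where about 1 in 20 is given by chance. The share was 0.881 for Mrpl18 (array 1, 7.18 against at least 7.51) and 0.975 for Mrps17 (array 2, 8.02 against at least 8.32). It was 0.931 for Mrps18c (array 3, 7.26 against at most 6.92) and 0.942 for Mrpl37 (array 4, 7.16 against at least 7.22). For Mrpl38 (array 1), Mrpl12 (array 3) and Mrpl10 (array 4) it was 1, because the other 3 arrays held exactly the same value. Mrps17 (8.316 to 8.323) and Mrpl37 (7.222 to 7.226) had nearly equal values on the other 3 arrays. The rate of 1 in 20 is for values without ties, so 7 of 25 cannot be read as an excess over it.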

How the results depend on the processing

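In all 17 alternatives limma called 0 genes of the family, and 46 to 54 were lower after PDGF-CC. All 71 were tested in each, except for 69 with the 50th percentile filter. The median difference was -0.034 with array weights, -0.039 with quantile normalization repeated (47 lower) and -0.049 with centred arrays. It ran from -0.091 to -0.035 when single arrays were left out. Over all genes tested the median was 0.011 with no filter and -0.011 with a 50th percentile filter, while that of the family was -0.059 with either. Genes with groups that do not overlap numbered 5 to 15, and those at an unadjusted p under 0.05 numbered 0 to 9, over the left-out arrays. The latter count was 1 with array weights, 2 with the description number as a covariate and 7 with numbers 1 to 4 against 5 to 7 as a block. The share over all genes was not taken in these settings, so these counts cannot be set against a background. The counts with the description number and with the block both include Mrps14, which was higher, with an adjusted p of 0.45 by limma under the block, where its p was below that of Mrps21. The large minus small subunit difference was -0.0007 with the description number and ran from -0.033 to 0.023 over left-out arrays, reversed without PDGF-CC array 2, PBS array 1 (-0.0046) and PBS array 3 (-0.0009). The mitochondrion-specific minus bacterial-type difference, whose alternative settings were chosen after seeing the data, ran from -0.079 to -0.020. Arrays with the same title number deviated together at 0.186, 0.119 and 0.097, not all over 0.1, so the numbers were not taken as pairs. Each of these was still the highest correlation of that PDGF-CC array with any PBS array, so pairs by title number are not excluded. The highest correlation of all was 0.337, between PDGF-CC array 4 and PBS array 3, which have neighbouring description numbers. With the replicate block (title numbers) the median was -0.069, and the block changed no call. There 5 genes had an unadjusted p under 0.05, again without a share over all genes to set beside them. Mrps36 reversed with quantile normalization repeated (-0.0069), array weights (-0.0033), the description number (-0.0034), and without PDGF-CC array 2 (-0.11) or PBS array 1 (-0.026), with a range up to 0.11 over left-out arrays. Mrps18a reversed without PBS array 2 (-0.032; up to 0.073 without other arrays), Mrpl15 likewise (-0.053; up to 0.25), and Mrpl10 with the mean of its probe sets (-0.024). The causes were not tested. Over all probe sets, 3 passed with a 50th percentile filter, centred arrays, a trended and robust prior or averaged probe sets, 1 with repeated quantile normalization or without PDGF-CC array 3, and none was of this family.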
